A study of Mus musculus with 6 samples.

Results

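The transcripts described here were 10 mRNAs that hepatocytes make in different zones of the liver lobule, measured in F4/80-positive liver cells. They were chosen by name, 5 for the cells around the central vein (*Glul*, *Oat*, *Cyp2e1*, *Cyp1a2* and *Rhbg*), and 5 for those around the portal tracts (*Cyp2f2*, *Hal*, *Sds*, *Gls2* and *Hsd17b13*). The 10 genes were part of a table of 49315 genes, and all 10 passed the filter on low counts. Each was read on the common scale of the libraries and also relative to albumin (*Alb*), a transcript of hepatocytes of every zone, in the same library.

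The libraries came from 6 mice, 1 library per mouse. The 3 WT mice were *Lpcat3* fl/fl / LysM +/+ littermates, and the 3 Lpcat3KOMac mice were *Lpcat3* fl/fl / LysM Cre/+, so both groups carried the floxed allele. In the Lpcat3KOMac mice Cre was expressed from the lysozyme M locus, which is active in macrophages, monocytes and neutrophils. Hepatocytes are not expected to express it. The background was C57BL/6N. The study used mice of both sexes, and the labels used here do not give the sex of each animal. High-fat feeding (60% fat) began at 8 to 12 weeks of age and lasted 16 weeks in both groups. Livers were digested with collagenase, most hepatocytes were spun out at low speed, and the F4/80-positive cells were then taken with magnetic beads. Polyadenylated RNA was sequenced. The samples were therefore prepared as Kupffer cells, macrophages that reside in the liver sinusoids, and hepatocyte transcripts were read in them as a minor part.

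Liver lobules are divided along the path of blood from the portal tract to the central vein. Oxygen, hormones and Wnt signals change along this path, and hepatocytes at its start and at its end carry out different reactions. Periportal hepatocytes break down amino acids and pass the ammonia to the urea cycle. A narrow ring of pericentral hepatocytes captures ammonia that escaped it as glutamine, and pericentral cells are also rich in cytochrome P450 enzymes that oxidise drugs and alcohol. Wnt ligands from the endothelium of the central vein act through beta-catenin to keep the pericentral genes on.

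The positions given here are those of the deposited tables, on GRCm38. *Glul* encodes glutamine synthetase and spans chr1:153899944-153909723 on the plus strand. *Oat*, for the mitochondrial ornithine aminotransferase, spans chr7:132557478-132576398 on the minus strand. *Cyp2e1*, a cytochrome P450 that oxidises ethanol and acetaminophen, spans chr7:140763739-140774987 on the plus strand. *Cyp1a2*, the P450 of caffeine oxidation, spans chr9:57676937-57683703 on the minus strand. *Rhbg*, for an ammonium transporter of the Rhesus family, spans chr3:88242874-88254709 on the minus strand. Among the periportal genes, *Cyp2f2* encodes a P450 that oxidises naphthalene and spans chr7:27119909-27133660 on the plus strand. *Hal*, for histidine ammonia-lyase, spans chr10:93488768-93519304, and *Gls2*, for the liver form of glutaminase, spans chr10:128194457-128210004, both on the plus strand. *Sds*, for serine dehydratase, spans chr5:120476526-120483932 on the plus strand. *Hsd17b13*, for a protein of hepatocyte lipid droplets, spans chr5:103955440-103977410 on the minus strand.

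The promoters of 7 of the 10 genes were found in the RefSeq table used here (GRCm38.p6), which held no entry for *Rhbg*, *Sds* or *Gls2*. They are shown because *Glul* and *Oat*, whose levels are compared below with those of albumin, differed from the rest in CpG content. In the 250 bases before the RefSeq start, *Glul* held 15 CpG dinucleotides and *Oat* 14, against a median of 6 over 32851 mouse promoters. *Hal* held 6, *Cyp1a2* and *Hsd17b13* 3 each, *Cyp2e1* 2 and *Cyp2f2* 0. The albumin promoter held 2. The sequences below are from chr1:153899679-153899928 (plus strand), chr7:132576399-132576648 (minus strand), chr10:93488518-93488767 (plus strand), chr7:140763569-140763738 (plus strand) and chr7:27119705-27119908 (plus strand). All are written 5′ to 3′ on the strand of the gene. The last 80 bases of the *Cyp2e1* window and the last 46 of the *Cyp2f2* window lay in exons of the counted models and are left out. Capitals mark matches on either strand to the motifs spelled out after the sequences.
Glul: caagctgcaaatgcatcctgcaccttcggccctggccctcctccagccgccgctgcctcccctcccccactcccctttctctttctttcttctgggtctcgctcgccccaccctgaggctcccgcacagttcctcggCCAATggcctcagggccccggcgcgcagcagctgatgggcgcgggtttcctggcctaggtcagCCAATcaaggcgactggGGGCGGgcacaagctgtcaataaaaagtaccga
Oat: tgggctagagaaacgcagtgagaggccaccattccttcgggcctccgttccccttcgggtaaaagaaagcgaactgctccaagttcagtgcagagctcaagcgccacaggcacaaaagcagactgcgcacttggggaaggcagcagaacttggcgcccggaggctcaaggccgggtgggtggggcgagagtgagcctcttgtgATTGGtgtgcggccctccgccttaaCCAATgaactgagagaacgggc
Hal: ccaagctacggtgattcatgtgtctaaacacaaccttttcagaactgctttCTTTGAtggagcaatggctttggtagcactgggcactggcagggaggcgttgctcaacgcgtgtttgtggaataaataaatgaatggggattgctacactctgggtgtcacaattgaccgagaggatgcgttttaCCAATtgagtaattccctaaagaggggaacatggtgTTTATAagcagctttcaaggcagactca
Cyp2e1: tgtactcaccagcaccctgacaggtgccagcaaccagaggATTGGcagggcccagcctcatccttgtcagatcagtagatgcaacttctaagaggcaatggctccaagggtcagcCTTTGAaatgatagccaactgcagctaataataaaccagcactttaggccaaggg
Cyp2f2: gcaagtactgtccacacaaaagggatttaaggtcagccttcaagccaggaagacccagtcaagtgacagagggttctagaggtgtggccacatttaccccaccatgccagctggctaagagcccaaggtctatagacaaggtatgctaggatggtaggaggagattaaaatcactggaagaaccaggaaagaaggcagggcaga

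The motifs searched were TATAAA, the core of the TATA box, GGGCGG, the GC box, and CTTTGA, the core bound by the TCF/LEF partners of beta-catenin. Searched as well were GTTAAT, part of the site of the hepatocyte factor HNF1, and CCAAT, the CCAAT box. The shares of all promoters that held them on either strand were 12.4%, 32.7%, 13.8%, 6.43% and 33.8%, in that order. No matches overlapped each other in these windows. TATAAA was found in *Cyp2e1*, *Cyp1a2* and *Hal*, 31, 29 and 28 bases before the RefSeq start. The *Hal* match was on the strand opposite to the gene, and reads TTTATA above. The *Cyp2e1* match fell in the part left out above. Of the 7 genes, GGGCGG was found in *Glul*, and none of the 7 windows held GTTAAT, which the albumin promoter did hold. CTTTGA was found in the pericentral *Cyp2e1* and *Cyp1a2* and also in the periportal *Hal* and *Hsd17b13*. These are matches of letters, and no binding was measured.

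Library totals ranged from 44954224 to 71392812 counts. Taken as a sum, defining markers of Kupffer cells were abundant in every library. The summed level of 8 of them (*Clec4f*, *Cd5l*, *Vsig4*, *Timd4*, *Marco*, *Adgre1*, *Csf1r* and *C1qa*) was 32000 to 44300 CPM (counts per 1000000 counts of the TMM-scaled library) in WT mice. It was 25400 to 34600 CPM in Lpcat3KOMac mice. Single markers could differ more. *Marco* was at 148 CPM in Lpcat3KOMac mouse 2, against 999 to 3170 CPM in the other libraries. *Timd4* was at 123 CPM there, against 344 to 938 CPM. *Lpcat3* itself was at 61.2 to 85 CPM in WT and 19.4 to 33.3 CPM in Lpcat3KOMac mice. *Alb* was at 13100 CPM in WT mouse 1 against 1200 and 1320 CPM in WT mice 2 and 3. Lpcat3KOMac mouse 2 had 9290 CPM, against 3130 and 3140 CPM in mice 1 and 3 of its group. The libraries of WT mouse 1 and Lpcat3KOMac mouse 2 thus stood apart from the others, and the range over the 6 libraries was 10.8-fold. Genotype differences are given below with and without them where they rest on them. The spreads over the 6 libraries include both, and are not given without the pair. In RNA from mixed cells, fewer hepatocytes and less RNA per hepatocyte cannot be told apart.

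The levels of the zonated transcripts were compared per length of exon, in CPM per kilobase. *Cyp2e1* was first with a mean of 619 ± 717 (SD over the 6 libraries). *Glul* was at 239 ± 50.7 and *Oat* at 99.1 ± 77. Then came *Hsd17b13* at 19.6 ± 18.8, *Cyp1a2* at 15.6 ± 16.3 and *Cyp2f2* at 13.7 ± 10.6. *Gls2* was at 5.21 ± 4.66, *Sds* at 2.77 ± 2.27, *Hal* at 2.26 ± 1.1 and *Rhbg* at 0.205 ± 0.248. *Alb* was at 2220. Thus the 3 highest levels belonged to pericentral genes, and so did the lowest. Part of this order did not hold from library to library. *Cyp2e1* was above *Glul* in 4 of 6 libraries, *Hsd17b13* above *Cyp1a2* in 3, *Cyp1a2* above *Cyp2f2* in 4, and *Sds* above *Hal* in 3. The other neighbours in the order kept their places in 6 of 6 libraries.

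**Figure D1:**
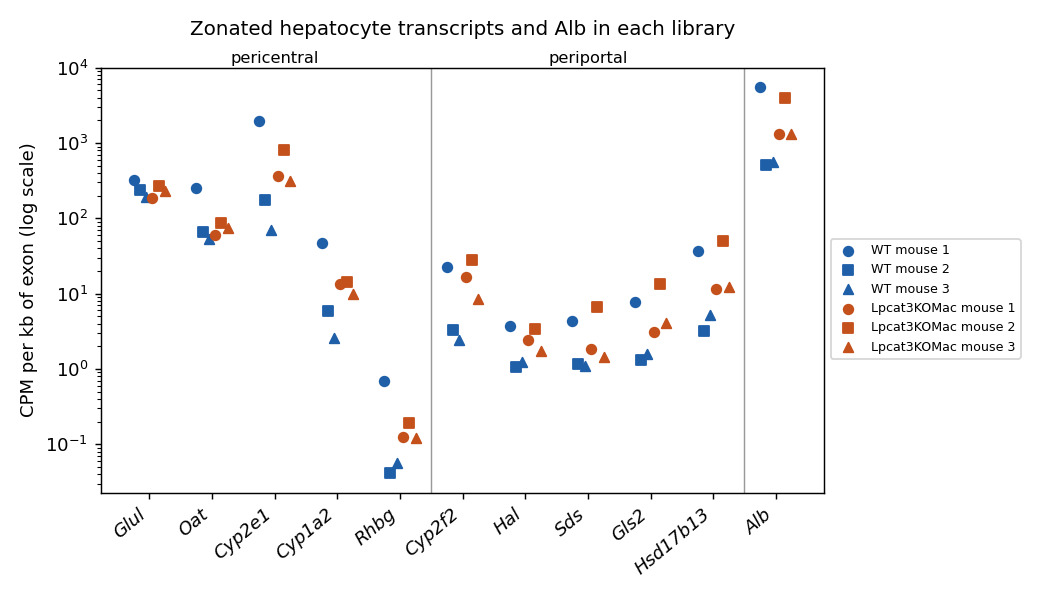
Level of each zonated transcript and of *Alb* in each of the 6 libraries, in CPM per kilobase of exon on a log axis, with WT mice in blue and Lpcat3KOMac mice in orange. WT mouse 1 and Lpcat3KOMac mouse 2 are at or near the top for most genes, while the *Glul* points lie close together, between 184 and 321.

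Among the pericentral transcripts, *Cyp2e1* differed most between libraries. Its level was 4290, 373 and 152 CPM in the WT group (mice 1, 2 and 3, an order kept below) and 779, 1740 and 677 CPM in the Lpcat3KOMac group. *Cyp1a2* was at 95.6, 11.7 and 5.16 CPM in WT and at 27, 29.1 and 19.7 CPM in Lpcat3KOMac mice. For both genes, WT mouse 1 was the highest and WT mouse 3 the lowest, so the WT values lay on both sides of the Lpcat3KOMac values. *Rhbg* was at 1.35, 0.0799 and 0.109 CPM in WT and at 0.241, 0.366 and 0.234 CPM in Lpcat3KOMac mice. These levels rested on few reads, with 88, 4 and 5 counts in WT and 14, 19 and 11 in Lpcat3KOMac mice. The highest level was 28.3 times the lowest for *Cyp2e1*, 18.5 times for *Cyp1a2* and 17 times for *Rhbg*.

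The other pericentral transcripts varied less. *Oat* was at 601, 156 and 125 CPM in WT and at 142, 205 and 176 CPM in Lpcat3KOMac mice. Apart from WT mouse 1, its 5 libraries lay between 125 and 205 CPM. *Glul* was at 1070, 788 and 641 CPM in WT and at 610, 889 and 775 CPM in Lpcat3KOMac mice. Its range was 1.75-fold, against 10.8-fold for *Alb* in the same libraries. Glutamine synthetase is made in many cell types, macrophages included, and counts of whole sorted samples do not say from which cells the *Glul* reads came.

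Among the periportal transcripts, *Hsd17b13* and *Cyp2f2* had the highest levels. *Hsd17b13* was at 78.6, 6.97 and 11.1 CPM in WT and at 24.5, 107 and 26.5 CPM in Lpcat3KOMac mice. *Cyp2f2* was at 45.5, 6.69 and 4.94 CPM in WT and at 34.2, 57.6 and 17.1 CPM in Lpcat3KOMac mice. For both, Lpcat3KOMac mouse 2 was the highest and WT mouse 1 the next. *Gls2*, which releases ammonia from glutamine for the urea cycle, had the same order at the top. It was at 27.2, 4.59 and 5.42 CPM in WT and at 10.6, 46.6 and 14.2 CPM in Lpcat3KOMac mice.

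The remaining periportal genes were those of serine and histidine breakdown. *Sds*, which turns serine into pyruvate, was at 7.3, 2 and 1.88 CPM in WT and at 3.15, 11.4 and 2.46 CPM in Lpcat3KOMac mice. *Hal*, which opens histidine breakdown, was at 20.4, 5.91 and 6.93 CPM in WT and at 13.5, 18.8 and 9.63 CPM in Lpcat3KOMac mice. The ranges over the 6 libraries were 15.3-fold for *Hsd17b13*, 11.7-fold for *Cyp2f2*, 10.2-fold for *Gls2*, 6.06-fold for *Sds* and 3.45-fold for *Hal*. In all 5 periportal genes the WT and Lpcat3KOMac values overlapped. WT mouse 2 or 3 was the lowest in each.

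Some exons of these genes are shared with neighbours, and the strand setting of the counting was not given in the sources used here. *Sds* shares 360 bases with *Plbd2* on the other strand, a gene with up to 13690 counts in a library. *Gls2* shares 97 bases with *Spryd4*, also on the other strand, which had up to 835 counts. *Glul*, *Cyp2f2* and *Rhbg* overlap genes with at most 51, 40 and 6 counts. The part of these overlaps in the levels of *Sds* and *Gls2* was not tested.

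Division by *Alb* asked which of these transcripts kept a fixed proportion to albumin from library to library. Of the 10, 8 varied less relative to *Alb* than on the CPM scale. The share among all 16133 genes tested was 9.53%. *Hsd17b13* had an SD of 1.53 for log2 CPM and 0.36 for the log2 ratio to *Alb*. *Cyp2e1* went from 1.68 to 0.56, *Rhbg* from 1.38 to 0.47 and *Gls2* from 1.30 to 0.45. *Cyp2f2* went from 1.48 to 0.59, *Cyp1a2* from 1.41 to 0.65 and *Sds* from 1.07 to 0.58, while *Hal* stayed nearly the same at 0.74 and 0.72. The exceptions were *Glul*, from 0.30 to 1.21, and *Oat*, from 0.82 to 0.90. The order of the steadier ones depended on the reference and on single libraries. With *Ttr* as the reference the SD of *Cyp2e1* was 0.27 and that of *Hsd17b13* 0.60. Relative to *Alb*, *Gls2* was at 0.22 without WT mouse 1, *Rhbg* at 0.20 without Lpcat3KOMac mouse 2, *Cyp2e1* at 0.34 without WT mouse 3 and *Cyp2f2* at 0.37 without Lpcat3KOMac mouse 1. *Glul* and *Oat* had the widest SDs with *Ttr* too, at 1.39 and 1.02.

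In percent of the *Alb* count, *Hsd17b13* was at 0.602, 0.578 and 0.842% in WT and at 0.783, 1.15 and 0.845% in Lpcat3KOMac mice. Its highest value was 1.98 times its lowest. *Cyp2e1* was at 32.9, 31 and 11.5% of *Alb* in WT and at 24.9, 18.7 and 21.6% in Lpcat3KOMac mice, and WT mouse 3 was the low one. *Cyp1a2* was at 0.732, 0.975 and 0.391% in WT and at 0.864, 0.313 and 0.628% in Lpcat3KOMac mice, with Lpcat3KOMac mouse 2 the lowest. *Rhbg* lay between 0.00395 and 0.0104% of *Alb*. By contrast, *Glul* was at 8.18, 65.4 and 48.6% of *Alb* in WT and at 19.5, 9.57 and 24.7% in Lpcat3KOMac mice. *Oat* was at 4.6, 12.9 and 9.48% in WT and at 4.53, 2.2 and 5.6% in Lpcat3KOMac mice. For *Glul* the lowest ratios were in WT mouse 1 and Lpcat3KOMac mouse 2, the libraries richest in *Alb*.

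*Cyp2f2* was at 0.348, 0.555 and 0.375% of *Alb* in WT and at 1.09, 0.62 and 0.546% in Lpcat3KOMac mice. Here Lpcat3KOMac mouse 1, not a library rich in *Alb*, was the highest, and only WT mouse 2 lay above an Lpcat3KOMac value. *Gls2* was at 0.208, 0.381 and 0.411% in WT and at 0.34, 0.502 and 0.452% in Lpcat3KOMac mice. *Hal* was at 0.156, 0.491 and 0.526% in WT and at 0.432, 0.203 and 0.307% in Lpcat3KOMac mice. Its lowest ratios, like those of *Glul*, were in the libraries richest in *Alb*. *Sds* was at 0.0559, 0.166 and 0.143% in WT and at 0.101, 0.123 and 0.0786% in Lpcat3KOMac mice.

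**Figure D2:**
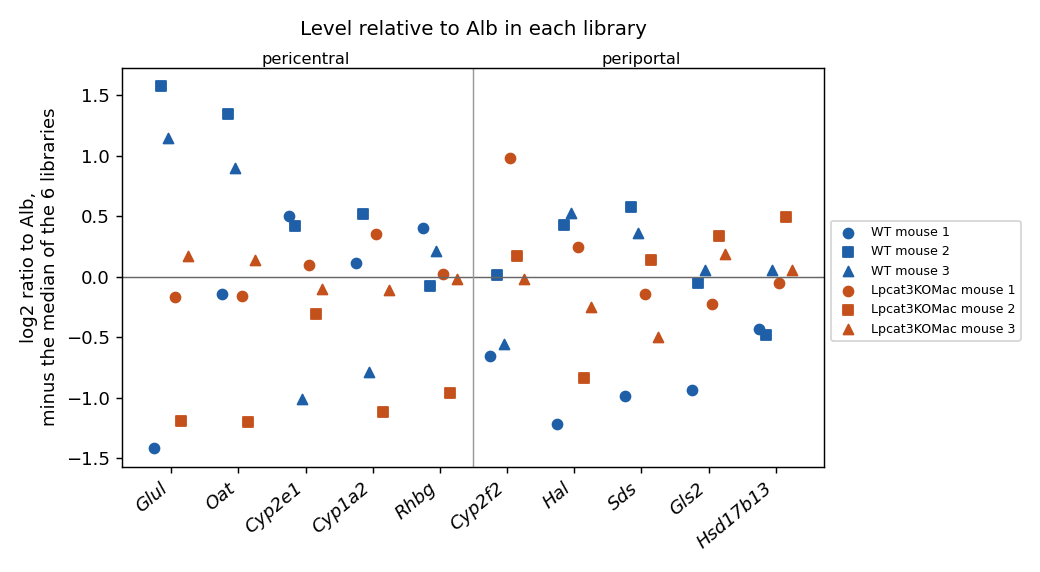
The log2 ratio of each transcript to *Alb* in each library, drawn relative to the median of the 6 libraries for that gene, with WT mice in blue and Lpcat3KOMac mice in orange. *Glul* has the widest spread (SD 1.21) and *Hsd17b13* the narrowest (SD 0.36), and the colours overlap in every gene.

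The same measure was taken for other transcripts of known cell types. All 10 general hepatocyte transcripts (*Ttr*, *Apoa1*, *Apoa2*, *Apoh*, *Ambp*, *Fgb*, *Ahsg*, *Trf*, *Serpinc1* and *Hpx*, secreted proteins of the plasma) varied less relative to *Alb*, with a median SD of 1.46 before and 0.25 after. So did 12 of 15 other pericentral transcripts, with medians of 1.60 and 0.69, and 14 of 17 other periportal transcripts, with medians of 1.43 and 0.52. None of the 8 Kupffer cell markers and none of 7 sinusoidal endothelial markers did. Of 5 stellate cell markers 1 did, and of 3 cholangiocyte markers tested 1 did. Among the Kupffer cell markers, *Marco* and *Timd4* had the widest SDs of log2 CPM, at 1.59 and 1. Median SDs before and after were 0.25 and 1.60 for the Kupffer cell markers, 0.58 and 1.15 for the endothelial markers and 0.60 and 1.07 for 5 stellate cell markers, beside 0.30 and 1.21 for *Glul*. The zonated transcripts thus kept a less fixed proportion to *Alb* than the plasma protein transcripts, with a median SD of 0.59 over the 10.

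**Figure D3:**
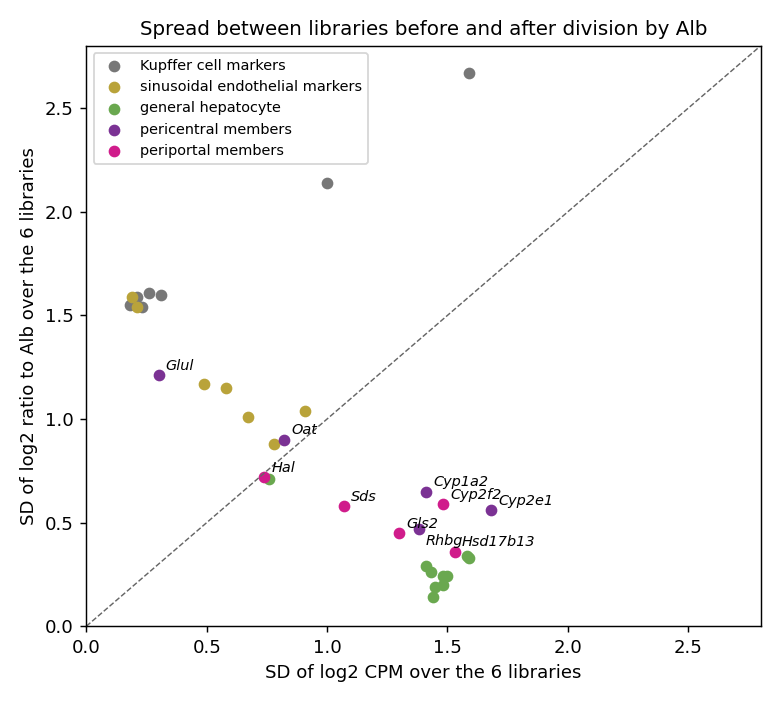
SD over the 6 libraries of log2 CPM (x axis) against the SD of the log2 ratio to *Alb* (y axis) for single genes, coloured by list, with a dashed line where they are equal. In all, 8 zonated transcripts lie below the line with the general hepatocyte transcripts, and *Glul* (0.30 and 1.21) lies above it.

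The comparison of genotypes asked whether the zonated transcripts differed between Lpcat3KOMac and WT samples. None of the 10 passed an adjusted p of 0.05 in the quasi-likelihood test of edgeR, adjusted by the Benjamini-Hochberg method over 16134 genes, and each had an adjusted p of 1. The background was the same, with 0 genes called (0% of those tested). At an unadjusted p under 0.05 the test found 426 genes (2.64%), and no zonated transcript. DESeq2 called 15 genes and limma-voom 0, again with no zonated transcript among them. DESeq2 gave no p for *Cyp2e1* and *Hsd17b13* and no adjusted p for *Rhbg*. The groups overlapped for all 10, where 7.49% of all genes had groups that did not overlap. Each mouse is 1 sample, so these tests measure the spread between mice.

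The log2 fold changes (Lpcat3KOMac against WT) were negative for all 5 pericentral transcripts and positive for all 5 periportal ones. Each was smaller than its standard error or close to it. For the pericentral genes they were -0.13 (SE 0.23) for *Glul*, -0.75 (SE 0.64) for *Oat*, -0.59 (SE 1.26) for *Cyp2e1*, -0.57 (SE 1.07) for *Cyp1a2* and -0.90 (SE 1.10) for *Rhbg*. The periportal values were 0.93 (SE 0.98) for *Cyp2f2*, 0.34 (SE 0.55) for *Hal*, 0.60 (SE 0.82) for *Sds*, 0.94 (SE 0.93) for *Gls2* and 0.70 (SE 1.11) for *Hsd17b13*. The medians were -0.59 and 0.70, against -0.04 over all genes and 0.00 (SE 1.09) for *Alb*. Over all genes, 6466 of 16133 log2 fold changes were positive and 9667 negative. In two-sided exact permutation tests on log2 CPM (n = 3 per group) the p-values of the 10 lay between 0.3 and 1, where 3 mice against 3 cannot give less than 0.1.

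The negative signs rested on WT mouse 1. Without it, all 10 log2 fold changes were positive, at 0.09 (SE 0.19) for *Glul*, 0.31 (SE 0.19) for *Oat*, 2.02 (SE 0.61) for *Cyp2e1*, 1.58 (SE 0.40) for *Cyp1a2* and 1.55 (SE 0.47) for *Rhbg*. The periportal values became 2.64 (SE 0.56) for *Cyp2f2*, 1.13 (SE 0.31) for *Hal*, 1.55 (SE 0.76) for *Sds*, 2.25 (SE 0.73) for *Gls2* and 2.54 (SE 0.81) for *Hsd17b13*. *Alb* was at 2.04 (SE 0.58), so the values of 7 zonated transcripts lay below that of *Alb* and those of *Cyp2f2*, *Gls2* and *Hsd17b13* above it. Of the 10, 7 had an unadjusted p under 0.05, and 0 passed the adjustment over all genes. All 7 were higher, where 9.67% of all genes were higher at that threshold. The same held for 9 of 10 general hepatocyte transcripts, 14 of 15 other pericentral and 11 of 17 other periportal ones. Of the Kupffer cell markers, 2 of 8 were lower, where 433 of 16487 genes were lower at that threshold. Without Lpcat3KOMac mouse 2, in turn, the values were -0.41 for *Sds*, 0.00 for *Gls2* and -0.34 for *Hsd17b13*, and without Lpcat3KOMac mouse 1 *Glul* was at 0.03.

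**Figure D4:**
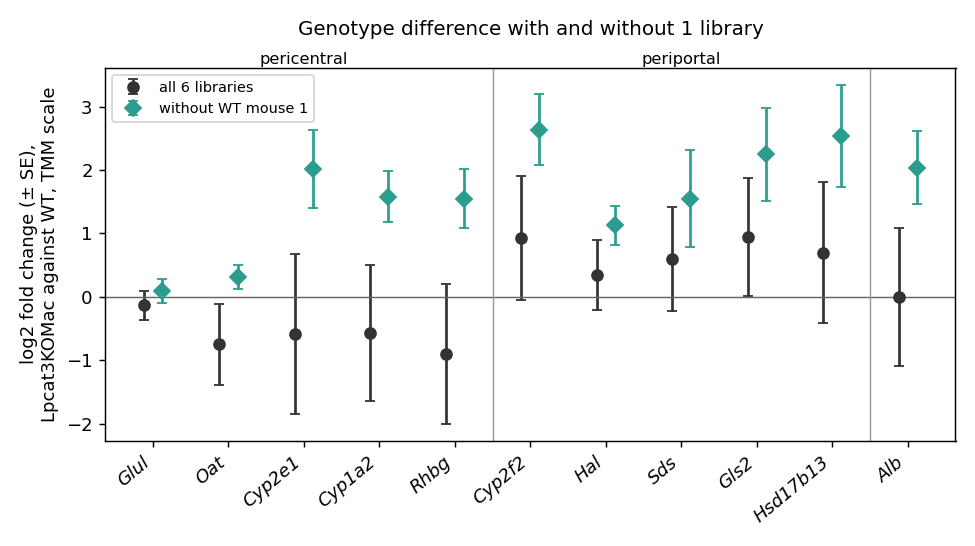
Log2 fold change of Lpcat3KOMac against WT with its SE for each zonated transcript and *Alb*, from all 6 libraries (dark circles) and without WT mouse 1 (green diamonds). With all libraries the pericentral values are negative and the periportal values positive, and without WT mouse 1 all values are above 0.

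Relative to *Alb*, the same test again called none of the 10 and 0 of 16133 genes (0%). At an unadjusted p under 0.05 there were 19 genes (0.118%), and none of the 10. DESeq2 and limma-voom also called 0, with 34 and 1 genes at an unadjusted p under 0.05. On this scale the median log2 difference of all genes was -1.18, so values near that figure differ little from the bulk of genes. *Glul*, at -1.18 (SE 1.18), and *Oat*, at -1.13 (SE 1.16), were at this level. *Cyp2e1* (-0.21), *Cyp1a2* (-0.22), *Rhbg* (-0.44), *Hal* (-0.31) and *Sds* (-0.27) lay nearer to 0, and *Cyp2f2* (0.82), *Gls2* (0.37) and *Hsd17b13* (0.46) above it. The SEs of this fit were 1.11 to 1.26, since it shares its estimate of spread with genes that did not follow *Alb*.

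From the ratios of each gene alone, the difference in mean log2 ratio was 0.78 (SE 0.37) for *Cyp2f2*, 0.46 (SE 0.24) for *Hsd17b13*, 0.41 (SE 0.35) for *Gls2* and -0.50 (SE 0.35) for *Rhbg*. It was -1.11 (SE 0.60) for *Oat*, -0.83 (SE 1.02) for *Glul*, -0.07 (SE 0.51) for *Cyp2e1* and -0.24 (SE 0.58) for *Cyp1a2*. *Hal* and *Sds* were at -0.19 (SE 0.65) and -0.15 (SE 0.53). Two-sided exact permutation tests gave p-values of 0.2 to 1 for the 10 (n = 3 per group). The groups overlapped for all 10, and 0.384% of all genes had groups that did not overlap on this scale.

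With the mean log2 level of the 10 general hepatocyte transcripts as a covariate, *Cyp2f2* was at 1.01 (SE 0.23) and *Oat* at -0.72 (SE 0.16). Their unadjusted p-values in edgeR's quasi-likelihood test were 0.00494 and 0.00499, and the adjusted p was 0.468 for both. In this fit 1494 of 16134 genes had an unadjusted p under 0.05, and 0 passed the adjustment. The *Oat* value is given with WT mouse 1 included, where *Oat* was at 601 CPM against 125 to 205 CPM in the other libraries. The unadjusted p-values of the other 8 were above 0.09, and *Gls2* came next at 0.72 (SE 0.36). *Cyp2e1* and *Cyp1a2* were at -0.11 (SE 0.24) and -0.10 (SE 0.34).

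The balance of the zones was described by the mean log2 ratio to *Alb* of the 5 pericentral transcripts minus that of the 5 periportal ones, a difference in which *Alb* itself drops out. This balance was 2.92, 2.84 and 2.18 in the WT group and 2.04, 1.16 and 2.30 in the Lpcat3KOMac group. The means were 2.65 ± 0.41 and 1.84 ± 0.60 (SD, n = 3), a difference of -0.81. It was -0.48 without Lpcat3KOMac mouse 2 and -0.34 without the 2 libraries highest in *Alb*. Lpcat3KOMac mouse 2 had the lowest value, and Lpcat3KOMac mouse 3 lay above WT mouse 3. Without *Glul* and *Oat*, the values were 1.61, 0.61 and -0.20 in WT and 0.41, -0.44 and 0.44 in Lpcat3KOMac mice, and the difference was -0.53. The same balance of the 15 other pericentral and 17 other periportal transcripts gave -0.71, -0.83 and -1.75 in WT and -1.15, -1.46 and -1.07 in Lpcat3KOMac mice. Its difference was -0.13, and WT mouse 3 was the lowest of all. These lists included transcripts that varied more relative to *Alb* than on the CPM scale. They were *Slc1a2*, *Cpox* and *Ahr* (pericentral) and *Ctsc*, *Aldh1b1* and *Cdh1* (periportal).

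Single pairs of transcripts showed the same overlap. The ratio of *Cyp2e1* to *Cyp2f2* counts was 94.3, 55.8 and 30.7 in WT and 22.8, 30.2 and 39.5 in Lpcat3KOMac mice. *Glul* to *Gls2*, the pair that makes and splits glutamine, was at 39.3, 172 and 118 in WT and at 57.3, 19.1 and 54.6 in Lpcat3KOMac mice. Both of its low values were in the libraries richest in *Alb*.

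WT mouse 1 and Lpcat3KOMac mouse 2 allowed the closest look at the zones, since their *Alb* counts were 848108 and 481605. Relative to *Alb*, 4 of 5 pericentral transcripts were higher in WT mouse 1 and 5 of 5 periportal transcripts higher in Lpcat3KOMac mouse 2. Of the 10 general hepatocyte transcripts, 8 were higher in WT mouse 1 too, so the pericentral count alone does not mark a zone. The ratio of WT mouse 1 to Lpcat3KOMac mouse 2 was 2.09 for *Oat* (95% interval 2.04 to 2.13), 1.75 for *Cyp2e1* (1.74 to 1.77), 2.34 for *Cyp1a2* (2.21 to 2.48) and 2.63 for *Rhbg* (1.59 to 4.57). *Glul* was the exception at 0.855 (0.845 to 0.865). Periportal ratios were 0.562 for *Cyp2f2*, 0.770 for *Hal*, 0.455 for *Sds*, 0.415 for *Gls2* and 0.525 for *Hsd17b13*, with upper bounds of at most 0.837. These exact Poisson intervals cover counting error only, and the values compare those libraries, not the genotypes.

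The wider lists gave a smaller contrast between these libraries. The median ratio was 1.77 for the 15 other pericentral transcripts, of which 11 were higher in WT mouse 1. It was 0.856 for the 17 other periportal transcripts, of which 12 were higher in Lpcat3KOMac mouse 2, and 1.36 for the 10 general hepatocyte transcripts. *Rgn* and *Cyp2a5* were among the highest levels of the other pericentral list and *Ctsc*, *Apoa4* and *Ass1* were the highest of the other periportal list. *Ctsc* did not follow *Alb*, with SDs of 0.17 for log2 CPM and 1.54 for the ratio. Nor did *Aldh1b1* (0.52 and 1.28) and *Cdh1* (0.38 and 1.24) of the same list. All of these were among those higher in Lpcat3KOMac mouse 2. *Cyp2a5*, a P450 of nicotine and coumarin oxidation, was at 1.04. *Apoa4*, an apolipoprotein, was at 0.702.

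**Figure D5:**
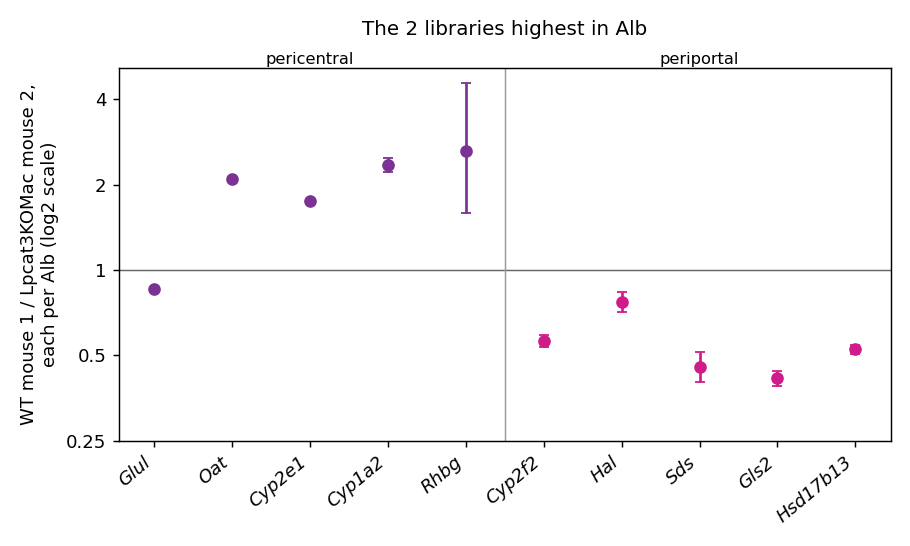
Level relative to *Alb* in WT mouse 1 divided by that in Lpcat3KOMac mouse 2 for each zonated transcript, on a log2 axis, with 95% exact Poisson intervals for counting error. The pericentral transcripts other than *Glul* lie between 1.75 and 2.63, *Glul* lies at 0.855, and the 5 periportal transcripts lie between 0.415 and 0.770.

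The zonated enzymes belong to pathways whose other genes were read the same way. In the ammonia and glutamine list, 0 of 15 genes passed the adjusted test in either direction, and 7 log2 fold changes were positive and 8 negative (median -0.12, against -0.04 over all genes). The urea cycle gene *Ass1*, for argininosuccinate synthetase, kept close to *Alb*, with an SD of 1.33 for log2 CPM and 0.13 for the ratio. *Arg1*, for arginase, went from 1.34 to 0.27, and *Cps1*, which starts the cycle, from 1.80 to 0.55. *Nags* (1.51 and 0.33), which makes the activator of that step, *Otc* (1.52 and 0.36) and *Slc25a15* (1.18 and 0.35), the ornithine carrier, were alike. The glutamine transporter *Slc38a3* went from 1.58 to 0.41. By contrast, the glutamate transporter *Slc1a2*, pericentral in the liver, went from 0.67 to 1.05 and the glutamate dehydrogenase *Glud1* from 0.36 to 1.10. For *Asl*, for argininosuccinate lyase, the SDs were 0.78 and 0.67.

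Histidine and serine breakdown gave a similar picture. Of its 6 genes, 0 passed the adjusted test, 5 log2 fold changes were positive and 1 negative (median 0.33), and all 6 varied less relative to *Alb*. *Uroc1*, the step after *Hal*, had an SD of 1.46 for log2 CPM and 0.17 for the ratio. *Ftcd* (1.43 and 0.26) and *Amdhd1* (1.17 and 0.30), later enzymes of the same path, were also steadier than *Hal* itself.

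Some of the 10 genes have close relatives in the genome. *Hsd17b11*, a relative of *Hsd17b13* found in many tissues, was at 153 to 232 CPM, a 1.51-fold range. *Sdsl*, the relative of *Sds*, was at 0.14 to 1.16 CPM and *Cyp1a1* at 0.0656 to 0.425 CPM. These levels rested on 7 to 75 and 3 to 23 counts per library. *Rhcg*, a relative of *Rhbg*, had too few counts to be tested. *Cyp2a5* ranged 26.2-fold, near *Cyp2e1*.

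In the wider zonation lists 0 genes passed the adjusted test. The other pericentral list had 5 positive and 10 negative log2 fold changes (median -0.63), and the other periportal list 11 positive and 6 negative (median 0.15). The smallest unadjusted p-values of edgeR's quasi-likelihood test in the other pericentral list were 0.181 for *Slc1a2* (log2 fold change -0.74, SE 0.48) and 0.406 for *Tbx3* (0.83, SE 0.93). In the other periportal list, *Cdh1* was at 0.62 (SE 0.25, unadjusted p 0.0475, adjusted p 1) and *Pck1* at -1.05 (SE 1.23). *Pck1*, an enzyme of glucose production, was at 801, 63.8 and 35.6 CPM in WT and at 99.5, 235 and 101 CPM in Lpcat3KOMac mice, so that its negative value rested on WT mouse 1. General hepatocyte transcripts had 2 positive and 8 negative values (median -0.29). The smallest unadjusted p-values among them were 0.713 for *Apoh* and 0.728 for *Fgb*.

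Markers of other cells were set beside these values. All 8 Kupffer cell markers had negative log2 fold changes, from -0.46 to -0.18, where 9667 of 16133 genes were negative. Of the 8, 2 had an unadjusted p under 0.05 in edgeR's quasi-likelihood test (*Clec4f* at -0.44 and *C1qa* at -0.31). Over all 16133 genes, 254 were lower at that threshold. Summed levels were 794 to 878 CPM in WT and 842 to 989 CPM in Lpcat3KOMac mice for 7 sinusoidal endothelial markers, and 60.9 to 154 and 109 to 200 CPM for 5 stellate cell markers. They were 0.319 to 0.678 and 0.895 to 1.14 CPM for 4 cholangiocyte markers, and 2.52 to 4.65 and 3.42 to 4.17 CPM for 4 lymphocyte markers. The cholangiocyte values rested on few reads, with 1 to 23 counts per marker and library. No marker was at 0 in all libraries. *Rspo3* and *Wnt2*, signals of the endothelium that keep pericentral genes on, were at 1.42 to 4.94 and 2.60 to 11.2 CPM. The part of these cells in the zonated transcripts was not tested.

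For each zonated transcript, the gene whose level kept the most fixed proportion to it over the 6 libraries was found among 12992 genes. For *Glul* it was *Pid1*, with an SD of the log2 ratio of 0.0519, and for *Cyp2e1* it was *Ablim3* at 0.0699. *Hal* was nearest to *Phldb2* at 0.0782, *Rhbg* to BC049987 at 0.106, *Cyp1a2* to *Ces3a* at 0.127 and *Oat* to *Tmc7* at 0.168. The remaining periportal genes had less close partners, with *Slco1a4* at 0.210 for *Hsd17b13*, *Dsg1c* at 0.221 for *Gls2*, *Rab30* at 0.253 for *Sds* and *Celsr1* at 0.309 for *Cyp2f2*. *Pid1* was at 41.8 to 68.6 CPM, a 1.64-fold range like the 1.75-fold range of *Glul*, and *Ablim3* ranged 28.6-fold like *Cyp2e1* at 28.3-fold. These are the smallest of many values over 6 libraries and describe likeness only.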

How the data were processed

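Polyadenylated RNA of F4/80-positive liver cells was sequenced from 3 WT and 3 Lpcat3KOMac mice, grouped by the labels. The deposited tables hold read counts per gene, which the authors made with featureCounts. The submitters' processing notes name Trimmomatic 0.36, STAR 2.5.2b, Subread 1.5.2 and GRCm38, and the strand setting and the treatment of multi-mapped reads are not given in the sources used here. Reads from genes that share sequence or exons could therefore be split or lost.

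Symbols were matched to GENCODE by Ensembl ID (49056 of 49315). Counts were analysed in R 4.3.3 with edgeR 4.0.16 (TMM scaling, a minimum count of 10 in filterByExpr, quasi-likelihood test, genotype only, Benjamini-Hochberg adjustment over all genes). The fit relative to *Alb* used the *Alb* count as library size. The log2 ratio used a pseudocount of 0.5. The SE of an edgeR value was derived from that value and its test statistic. SEs of the ratios of each gene alone came from the variances within the groups. limma 3.58.1 and DESeq2 1.42.0, filters, scalings, references, a covariate, a block and the omission of each mouse were alternatives. The scripts were tested on simulated data. All 15 pairs of libraries differed by more than sampling noise (chi-square per degree of freedom of at least 40.8). Among the 10 zonated transcripts, totals of 44954224 to 71392812 counts left counting error small except for *Rhbg*. Some other genes, such as *Cyp1a1* and the cholangiocyte markers, rested on few reads.

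The 10 genes and all lists were chosen with earlier results of these data known. Named besides them were *Alb*, the sister and ammonia genes, in each other hepatocyte list the 3 highest levels and 2 smallest p-values, and the nearest gene of each of the 10. Other genes were named after their values were seen, and some genes of the rule are not reported here.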

Additional observations from a re-analysis of the deposited data

How the results depend on the processing

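On the TMM scale, the count of genes called stayed at 0 under every alternative but DESeq2, which called 15 genes, and none of the 10 zonated transcripts was called under any. Relative to *Alb* it stayed at 0 except without WT mouse 1, where 10107 genes were called, so that leaving out each mouse in turn gave 0 to 10107. It was 12569 without the 2 libraries highest in *Alb*, a setting chosen after seeing the data. There, by the quasi-likelihood test of edgeR and Benjamini-Hochberg adjusted, *Glul* (-1.37, adjusted p 0.00116) and *Oat* (-1.14, adjusted p 0.00204) were called, as were most of the 16125 genes tested. In that setting *Cyp2e1*, *Cyp1a2*, *Rhbg* and *Gls2* turned to 0.13, 0.13, 0.02 and 0.00 relative to *Alb*. On the TMM scale *Oat*, *Cyp2e1*, *Cyp1a2* and *Rhbg* turned to 0.18, 1.47, 1.47 and 1.31. With limma-voom *Cyp2e1*, *Cyp1a2* and *Rhbg* turned to 0.65, 0.31 and 0.11 on the TMM scale. The causes were not tested.

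With the replicate number as a block, 0 genes were called on either scale, 138 had an unadjusted p under 0.05 on the TMM scale and 0 relative to *Alb*. *Cyp2e1*, *Cyp1a2* and *Rhbg* turned to 0.92, 0.57 and 0.11 on the TMM scale. Deviations of same-numbered mice correlated at -0.29, -0.58 and 0.35, and WT mouse 1 correlated best with Lpcat3KOMac mouse 2 (0.65). Those libraries were the richest in *Alb*, so the correlations cannot tell whether same-numbered mice shared a day or cage. The labels do not say.

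Leaving out each mouse in turn moved the TMM log2 fold change from -0.29 to 0.09 for *Glul*, -1.12 to 0.31 for *Oat*, -1.15 to 2.02 for *Cyp2e1*, -1.09 to 1.58 for *Cyp1a2* and -1.40 to 1.55 for *Rhbg*. The ranges were 0.00 to 2.25 for *Gls2*, -0.41 to 1.55 for *Sds* and -0.34 to 2.54 for *Hsd17b13*. Relative to *Alb* they were -0.55 to 0.03 for *Cyp2e1*, -0.57 to 0.10 for *Cyp1a2* and -0.61 to 0.03 for *Sds*. For all 10 transcripts together, the difference in the balance of the zones stayed negative, from -1.04 to -0.48 with a mouse left out. It was -0.34 without the 2 libraries highest in *Alb* and -0.85 with a pseudocount of 5. By its construction neither the reference nor the block can change it. The other versions of the balance rested more on WT mouse 1. Without *Glul* and *Oat*, WT mouse 1 was at 1.61, and WT mice 2 and 3 were at 0.61 and -0.20. The Lpcat3KOMac mice were at 0.41, -0.44 and 0.44. In the other lists, WT mice 2 and 3 were at -0.83 and -1.75, on both sides of the Lpcat3KOMac values. Depth limits *Rhbg*, at 4 and 5 counts in WT mice 2 and 3.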
